A study of Mus musculus with 21 samples.

Results

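The gastrocnemius of 7 female C57BL/6NJ mice that had trained on a treadmill for 4 weeks and then remained inactive for 2 weeks (Activity Reduction) was compared with that of 7 female C57BL/6NJ mice that had trained for all 6 weeks (Active). These were 14 of the 21 libraries of the study, chosen by the treatment in their labels, and the other 7 came from mice that were never trained (Inactive). Mice entered the protocol as young adults, all mice ran a final graded test days before tissue was taken, and they were fasted in the light phase before being euthanized under anesthesia. Poly(A) RNA of the whole medial belly was sequenced, and each of the 14 libraries came from its own mouse, so that each value is from 1 animal and includes every cell type of the tissue. The comparison asks which transcripts of trained muscle differ once training has stopped.

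Skeletal muscle is a mixture of fibre types. Slow fibres use the myosin heavy chain of Myh7 together with slow troponins, the calcium pump of Atp2a2 and the calcium-binding protein of Casq2, and fast fibres use Myh1, Myh2 or Myh4. Around the fibres lie capillaries, fibroblasts that make the collagen-rich matrix, resident macrophages, satellite cells and nerve. Endurance training is known for new capillaries and mitochondria, and for remodelling of this matrix.

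Counts on genes ranged from 38482455 to 49211581 in the Active libraries and from 48906675 to 55773226 in the Activity Reduction libraries, with medians of 46532461 and 49829192. Expression is given in CPM (counts scaled to a common library total, with TMM factors that correct for differences in composition between libraries). Fast fibre transcripts dominated, with Myh4 at a median of 85740 CPM in the Active and 83570 CPM in the Activity Reduction group. Transcripts made in the liver set libraries apart. Alb, which encodes the plasma protein albumin, was above 250 CPM (here on the library total alone) in 5 Active and 2 Activity Reduction libraries, where it ranged from 365 to 976, and below it in the other 2 Active and 5 Activity Reduction libraries, where it ranged from 71.1 to 161. Replicates 1 to 5 of the Active group and replicates 1 and 2 of the Activity Reduction group were the libraries above. Animal numbers in the labels split the same way. Over all 21 libraries, the 8 above came from the 8 lowest animal numbers and the 13 below from the rest. What the animal number stands for is not given in the sources used here, so albumin level and whatever the number follows cannot be told apart. The first principal component of the 14 libraries held 30.8% of the variance, of which 92.2% lay between the sides of this albumin division and 19.5% between the groups. These shares overlap, because the division splits the groups unequally, so the share between the groups is not separate from that of the division. List counts are therefore given without and with the division as a covariate, in that order where 2 counts stand, and single genes with it where only 1 value stands. Of 215 genes named by the rule for single genes, 207 had the same sign in both fits, which use the same libraries. For 24 of the 215 the rule itself had fixed this. The 8 that differed in sign were 5 liver transcripts with Alb among them, 2 globins and Pdk4, a kinase that inhibits pyruvate dehydrogenase (0.01, SE 0.243 without and -0.23, SE 0.228 with the division). The values differed by 0.2 or more on the log2 scale for 11 of the 215, among them the 5 liver transcripts, Pdk4, Elovl6 and Fasn. The list of 24 liver transcripts includes Alb, on which the division was cut, so a move of its median between the fits follows from this choice. Its median log2 fold change was -0.91 without the division and 0.10 with it, and 0 of its members reached an unadjusted p-value under 0.05 in either fit. Without Activity Reduction replicate 1 there were 11 lower in the fit without the division, and without Activity Reduction replicate 2 there were 7. Its summed level, in which Alb was the most abundant, was between 213 and 1977 CPM in Active and between 167 and 1591 CPM in Activity Reduction libraries, and no member was at 0 in all 14.

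**Figure D1:**
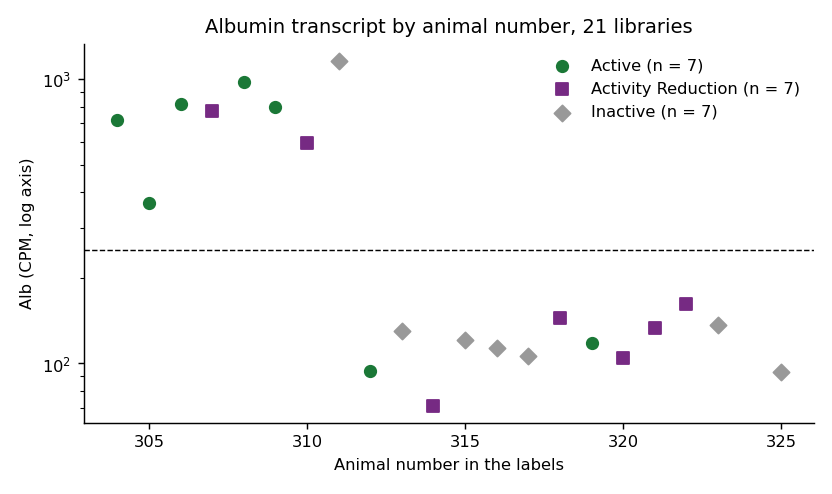
Alb in CPM on the library total (log axis) against the animal number of the labels, for all 21 libraries. The 8 libraries above the dashed line at 250 are those with the lowest animal numbers, and the groups are divided unequally by it.

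With edgeR's quasi-likelihood test, 0 of 16129 transcripts (0.0%) differed in expression in Activity Reduction against Active mice at an adjusted p-value under 0.05 and a log2 fold change over 0.25 in either direction, and the same was found with the albumin division in the model. The smallest adjusted p-values were 0.0519 without and 0.0848 with the division. At an unadjusted p-value under 0.05, 1102 transcripts (6.83%) were higher and 1083 (6.71%) lower in the Activity Reduction group, and with the division 900 (5.58%) were higher and 859 (5.33%) lower. In both fits 1385 transcripts had such a value with the same sign, 731 higher and 654 lower. The edgeR fit holds all 21 libraries, which share the estimate of spread, and edgeR on the 14 libraries alone also gave 0 of 15554 in each fit, with 2003 at an unadjusted p-value under 0.05 without and 1702 with the division. DESeq2, the tool of the study, on the 14 libraries gave 132 differentially expressed transcripts (0.906% of 14570 with an adjusted p-value), 28 higher (0.192%) and 104 lower (0.714%), and with the division 83 (0.614% of 13525), 35 higher (0.259%) and 48 lower (0.355%). The 47 transcripts in both DESeq2 lists were 35.6% of the former and 56.6% of the latter. A difference of the group effect between the sides of the division was tested in edgeR as an interaction, and 0 of 15554 transcripts passed, with a smallest adjusted p-value of 1.00 and 461 transcripts at an unadjusted p-value under 0.05. In what follows, "higher" and "lower" describe values in the Activity Reduction relative to the Active group, list counts use unadjusted p-values of edgeR, adjusted p-values are from edgeR with Benjamini-Hochberg adjustment unless DESeq2 is named, and no transcript passed edgeR's adjusted threshold.

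The 30 leading transcripts were the 12 higher and 12 lower with the smallest p-value in the fit with the division, among those with a mean of at least 1 CPM and a log2 fold change over 0.25 in both fits, together with the 15 with the smallest adjusted p-value in DESeq2 with the division. They were 16 higher and 14 lower. All 30 had the same sign without the division, which the choice had fixed for 24 of them, and in only the 7 libraries below 250 and only the 7 above, which are parts of the libraries that chose them. With DESeq2 and the division, 25 of the 30 passed, and for 5 the groups did not overlap (0.174% and 0.112% of all transcripts did not overlap with the Activity Reduction group higher or lower). Since these transcripts were chosen by their p-values, these signs and the single-gene tests on them are descriptions.

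Leading transcripts with a role in the muscle fibre were found on both sides. Casq2 encodes the calsequestrin of slow and cardiac muscle, which stores calcium in the sarcoplasmic reticulum, and lies on chromosome 3 of GRCm39 from 101993234 to 102056307. It was between 34.3 and 53.3 CPM (median 46.4) in Active and between 27.4 and 43.8 CPM (median 32.9) in Activity Reduction mice, against a median of 38.9 CPM in Inactive mice. The groups overlapped through the lowest Active library, replicate 3, at 34.3 CPM. Between the groups, the log2 fold change of Casq2 was -0.43 (SE 0.105, adjusted p = 0.107) without and -0.51 (SE 0.105, adjusted p = 0.116) with the division, and DESeq2 with the division gave an adjusted p-value of 0.000316. Actc1, the cardiac alpha-actin, which adult skeletal muscle also expresses at a low level, had medians of 542 CPM in Active and 292 CPM in Activity Reduction mice. It ranged from 345 to 618 CPM in the former and from 191 to 564 CPM in the latter, so that the groups overlapped, with a log2 fold change of -0.75 (SE 0.249, adjusted p = 0.258) with the division. Mylk2, the myosin light chain kinase of skeletal muscle, was higher, with a median of 1133 CPM against 946 CPM and a log2 fold change of 0.29 (SE 0.0936, adjusted p = 0.246) with the division. Ctxn3, which encodes the small membrane protein cortexin 3, was higher in every Activity Reduction mouse (22.6 to 38.2 CPM) than in every Active mouse (15.6 to 21.8 CPM), and its log2 fold change was 0.65 in both fits (SE 0.143 and adjusted p = 0.116 with the division). Inactive mice had a median of 25.0 CPM of Ctxn3.

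All 11 slow fibre genes were lower with the division, and all 11 had a p-value under 0.05 in that fit, where 5.33% of all transcripts did so. Without it only Casq2 and Atp2a2 did, 2 of 11, against 6.71% of all transcripts. The median log2 fold change of the list was -0.42 without and -0.59 with the division, beside -0.00 over all transcripts in both. In the 7 libraries below 250 the median was -0.46 and only Casq2 had a p-value under 0.05, and in the 7 above 9 of 11 did, with a median of -0.82. Members of the list are coexpressed in the same fibres, so they are not independent of each other, and Casq2 and Atp2a2 are also in the calcium handling list. The summed level of the list, led by Atp2a2, was between 1160 and 2735 CPM in Active and between 799 and 2425 CPM in Activity Reduction libraries. Myh7 was between 195 and 638 CPM (median 525.9) in Active and between 95.7 and 510 CPM (median 359) in Activity Reduction mice. The groups overlapped widely. Active replicate 3 (195 CPM) and Activity Reduction replicates 1 (173 CPM) and 4 (95.7 CPM) were lowest, and all 7 Inactive mice were above them, with a median of 563 CPM. Its log2 fold change was -0.52 (SE 0.274, adjusted p = 0.412) without and -0.71 (SE 0.285, adjusted p = 0.351) with the division, and neither the exact permutation test (p = 0.147) nor that within the division (p = 0.0998) gave a p-value under 0.05. Its exons share 24.6% of their length with the noncoding Mhrt on the opposite strand, which leaves its count uncertain. Atp2a2, the slow fibre calcium pump, had medians of 558 and 386 CPM and a log2 fold change of -0.63 (SE 0.208, adjusted p = 0.258), and Myl2, a slow myosin light chain, medians of 207 and 174 CPM and -0.45 (SE 0.149, adjusted p = 0.258), both with the division. The count depended on single libraries. Leaving out each library in turn gave 1 to 10 members with a p-value under 0.05 in the fit without the division, with 10 without Active replicate 3, 7 without Activity Reduction replicate 5, 6 without Activity Reduction replicate 3, 4 without Activity Reduction replicate 7, and 1 without Active replicate 1, 2, 6 or 7 or Activity Reduction replicate 1, 2 or 4. In the fit with the division it gave 3 to 11, and the 3 were without Activity Reduction replicate 1 (median -0.46).

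Since all 11 had the same sign, the 250 bases before the start of each of the 10 with a RefSeq promoter (GRCm38.p6) were searched on both strands for 3 motifs, which were chosen after their matches had been looked at. CATTCCA, the MCAT element bound by TEAD factors, is in the promoter of Myh7 and in 3.69% of the 32851 promoters. TCAAGGTCA, the extended response element of the estrogen-related receptors, is in those of Myh7b, another slow-type myosin, and Tpm3, the slow tropomyosin, and in 0.387% of all. A form of the MEF2 site is in that of Myoz2, a slow fibre Z-disc protein, and in 3.2% of all. The promoters of Myh7, Myh7b and Tpm3 are shown to place the first 2 motifs, 5′ to 3′ on the strand of the gene, with the match in capitals, which reads as the reverse complement in Myh7 and Myh7b.
Myh7 (chr14:54994627-54994876, minus strand): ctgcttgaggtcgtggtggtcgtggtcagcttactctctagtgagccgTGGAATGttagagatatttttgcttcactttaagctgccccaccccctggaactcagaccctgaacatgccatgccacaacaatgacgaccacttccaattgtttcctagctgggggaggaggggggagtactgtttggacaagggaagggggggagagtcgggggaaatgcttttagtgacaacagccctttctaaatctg
Myh7b (chr2:155610993-155611242, plus strand): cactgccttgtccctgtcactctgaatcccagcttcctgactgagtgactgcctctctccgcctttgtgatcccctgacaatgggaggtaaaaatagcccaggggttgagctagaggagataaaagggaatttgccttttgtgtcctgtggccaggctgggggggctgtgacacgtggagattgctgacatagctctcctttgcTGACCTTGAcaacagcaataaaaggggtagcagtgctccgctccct
Tpm3 (chr3:90072401-90072650, plus strand): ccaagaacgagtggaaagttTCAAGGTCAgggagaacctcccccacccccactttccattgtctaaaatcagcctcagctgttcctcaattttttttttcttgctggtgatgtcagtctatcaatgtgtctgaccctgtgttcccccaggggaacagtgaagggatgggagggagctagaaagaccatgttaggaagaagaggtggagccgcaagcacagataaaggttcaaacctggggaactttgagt
Matches begin 202, 46 and 230 bases before the start in that order. Esrrg, which encodes an estrogen-related receptor of oxidative muscle, ranged from 18.5 to 26.3 CPM in Active and from 16.2 to 21.6 CPM in Activity Reduction mice and overlapped between them, with a log2 fold change of -0.33 (SE 0.0966, adjusted p = 0.199) with the division. A match of letters is a description of these windows only.

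Few fast fibre genes had a p-value under 0.05. Of 14, 1 was higher in each fit and 0 lower, with medians of 0.06 and 0.03. That member was Myoz1, a fast fibre Z-disc protein, with medians of 1764 and 1934 CPM and a log2 fold change of 0.17 (SE 0.0432) without and 0.14 (SE 0.0464) with the division. Myh4 had a log2 fold change of -0.08 (SE 0.0819), Myh1 one of -0.05 (SE 0.124) and Myh2 one of -0.10 (SE 0.080) with the division (adjusted p-values of 0.784, 0.934 and 0.703 in that order). Among 19 calcium handling genes, 3 were higher and 2 lower without and 2 and 2 with the division, the lower being Atp2a2 and Casq2, and one of the higher being Jph1, which ties the sarcoplasmic reticulum to the surface tubules (0.20, SE 0.0559).

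**Figure D2:**
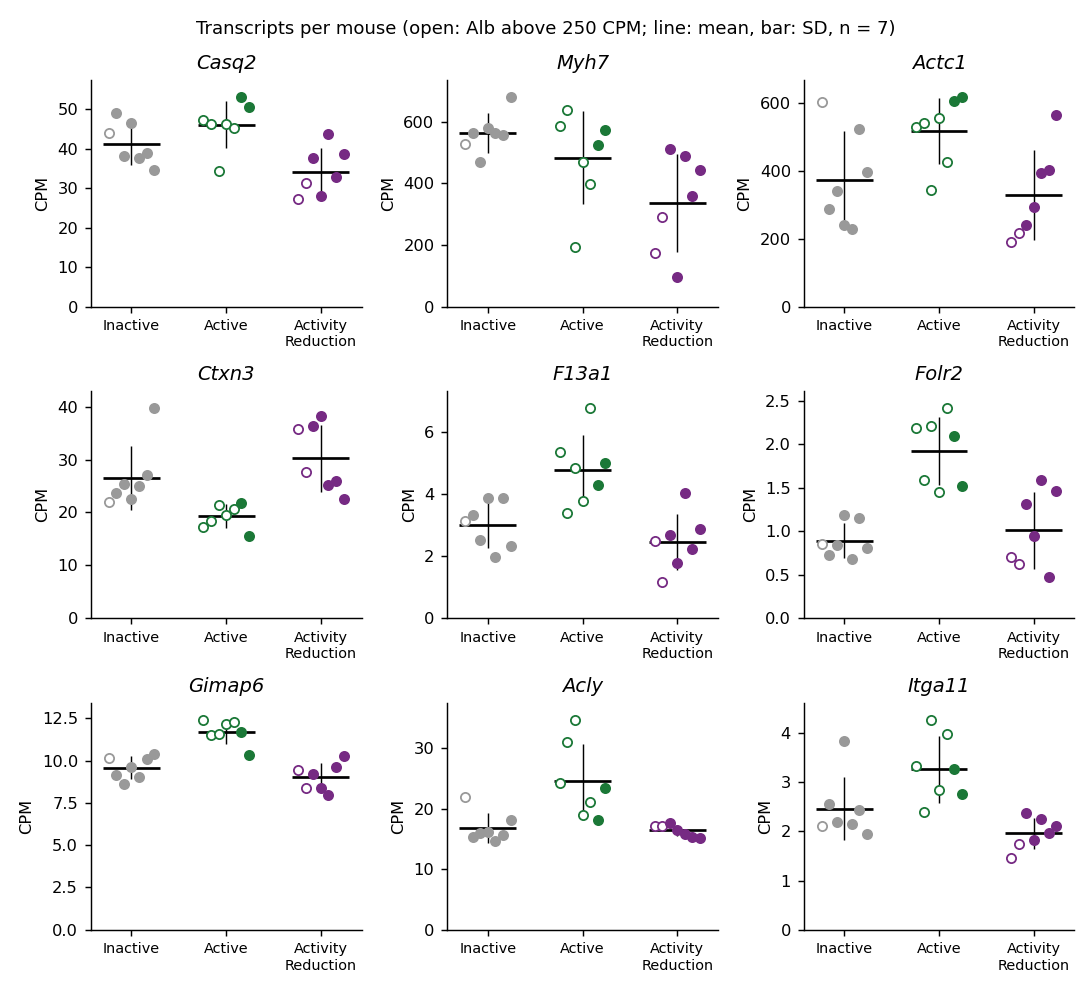
CPM of 9 transcripts in each mouse of the 3 groups, with open points for libraries above 250 of Alb, a line at the mean and a bar of 1 SD (n = 7). Ctxn3, Gimap6, Acly and Itga11 do not overlap between Active and Activity Reduction mice, whereas Myh7 does so over most of its range.

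Part of the genes that mark resident macrophages were lower. The resident macrophage list holds scavenger receptors and lectins of tissue macrophages. In each fit 10 of its 15 members had a p-value under 0.05 and lower levels, and 0 were higher. The medians were -0.80 without and -0.59 with the division. Folr2, Cd209f and F13a1 are in the list, and the study had already reported them as higher in Active mice from these same libraries. Its summed level, led by Gas6, was between 120 and 147 CPM in Active and between 103 and 134 CPM in Activity Reduction libraries, and no member was at 0 in all 14. In whole tissue, fewer macrophages and less RNA in each of them cannot be told apart. F13a1, the A subunit of coagulation factor XIII, was between 3.38 and 6.77 CPM (median 4.84) in Active and between 1.16 and 4.03 CPM (median 2.48) in Activity Reduction mice, overlapping through 1 mouse of the latter group, replicate 5. F13a1 had a log2 fold change of -0.96 (SE 0.204) without and -1.02 (SE 0.219, adjusted p = 0.116) with the division. Folr2, a folate receptor, was between 1.45 and 2.42 CPM (median 2.10) in Active and between 0.468 and 1.59 CPM (median 0.947) in Activity Reduction mice, with a log2 fold change of -0.996 (SE 0.230, adjusted p = 0.131), and Inactive mice had a median of 0.844 CPM. Of the exon length of Folr2, 61.2% is also covered by Gm10602, which lies on the other strand, and the strand setting of the counts is not given in the sources used here, so this count is uncertain. Clec10a, a galactose-binding lectin, had medians of 1.68 and 0.979 CPM and a log2 fold change of -0.89 (SE 0.214). Lyve1, the hyaluronan receptor of these cells and of lymph vessels, had -0.90 (SE 0.265), and the lectin Cd209f -1.04 (SE 0.288), all with the division. Within the 7 libraries below 250, 14 of the 15 were tested, of which 4 were lower and 0 higher (2.67% and 1.95% of all transcripts), and the median was -0.38. Within the 7 above, 9 were lower and 0 higher (4.49% and 4.2% of all transcripts), with a median of -0.91. Of 16 macrophage genes that are not particular to the resident type, 2 were lower without and 3 with the division, with medians of -0.27 and -0.35. All 16 were below 0 with the division, 6 were lower in the libraries above 250 (median -0.55) and 0 in those below (median -0.26), and with single libraries left out there were 1 to 3 and 1 to 4. The medians of these leave-outs lay between -0.44 and -0.08 without and between -0.50 and -0.28 with the division. Csf1r, the receptor for the macrophage growth factor, had a log2 fold change of -0.68 (SE 0.185, adjusted p = 0.175), the surface marker Adgre1 one of -0.57 (SE 0.330, adjusted p = 0.542) and the complement subunit C1qa one of -0.35 (SE 0.228, adjusted p = 0.61). The exons of Csf1r share 19.8% of their length with Hmgxb3 on the opposite strand, which leaves its count uncertain.

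Most fibroblast genes and a smaller part of the matrix genes were lower over the 14 libraries. Of 12 fibroblast genes, 11 without and 10 with the division had a p-value under 0.05 and lower levels, and the medians were -0.37 and -0.41. In the libraries below 250, 0 of 12 did so and the median was -0.19, and in those above 11 did, with a median of -0.58. Leaving out single libraries gave 6 to 12 with the division, with 6 without Activity Reduction replicate 1 or 2, and 7 to 12 without it, with 7 without Active replicate 5 or Activity Reduction replicate 4. Dcn, the collagen-binding proteoglycan decorin, was between 107 and 148 CPM (median 114) in Active and between 65.0 and 130 CPM (median 86.0) in Activity Reduction mice, overlapping through Activity Reduction replicates 5 and 7. Its log2 fold change was -0.45 (SE 0.136, adjusted p = 0.21) with the division, but -0.10 in the libraries below 250 and -0.78 in those above. Clec3b, which encodes tetranectin, had -0.37 (SE 0.119) and Dpt, the matrix protein dermatopontin, -0.41 (SE 0.136). Of 24 collagen chains, 11 were lower without and 9 with the division and 0 were higher, with medians of -0.32 and -0.24, and 5 were lower with the division without Activity Reduction replicate 1 or 2. Col1a1, a chain of the main fibrillar collagen, had medians of 46.5 and 26.2 CPM and overlapped through Active replicate 6. It had a log2 fold change of -0.57 (SE 0.211, adjusted p = 0.306), with an adjusted p-value of 0.0133 in DESeq2. Col5a2 had -0.37 (SE 0.118) and Col14a1 -0.71 (SE 0.268). Of 20 genes of collagen processing, 19 were tested, 7 were lower without and 4 with the division (4 and 2 without Active replicate 1, Active replicate 4 or Activity Reduction replicate 6, and 2 with it without Active replicate 5), 0 and 1 were higher, and the enhancer of procollagen cleavage Pcolce2 had -0.62 (SE 0.185). In the libraries below 250, 0 of these 19 were lower (median -0.03), and in those above 6 were (median -0.20). Of 25 laminin and integrin genes, 8 and 7 were lower and 1 and 0 higher. Itga11, a collagen receptor of fibroblasts, was lower in every Activity Reduction mouse (1.46 to 2.37 CPM) than in every Active mouse (2.39 to 4.28 CPM), with a log2 fold change of -0.79 (SE 0.172, adjusted p = 0.116). Lama4, a laminin of vessel walls, had -0.30 (SE 0.101) and Itga6, a laminin receptor, -0.25 (SE 0.0678). Rcn1, which encodes a calcium-binding protein of the endoplasmic reticulum, also did not overlap (4.15 to 5.62 against 5.92 to 7.32 CPM).

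Some endothelial genes had a p-value under 0.05 and lower levels, in numbers that moved with single libraries. Of 18 identity genes, 5 without and 4 with the division were lower, the medians were -0.06 and -0.08, and the most abundant, Flt1, was not among them. Over all transcripts 6.71% were lower without and 5.33% with the division. With the division 1 of the 18 was lower without Active replicate 6, which is near that share, and 7 were without Active replicate 7. Kdr, the main receptor for VEGF, was between 32.3 and 44.8 CPM (median 43.2) in Active and between 26.2 and 36.1 CPM (median 30.8) in Activity Reduction mice, and the groups overlapped through Active replicate 7. Its log2 fold change was -0.42 (SE 0.103) without and -0.37 (SE 0.109, adjusted p = 0.202) with the division, with an adjusted p-value of 0.0102 in DESeq2. The adhesion molecule Pecam1 had -0.16 (SE 0.0603, adjusted p = 0.319), and the cadherin of endothelial junctions, Cdh5, -0.13 (SE 0.0696, adjusted p = 0.49). In the VEGF and angiopoietin system 4 and 3 of 16 genes were lower, which included the coreceptors Nrp1 (-0.18, SE 0.0659) and Nrp2 (-0.25, SE 0.0782). Without Activity Reduction replicate 3 there were 7 and 6, and with the division also 6 without Active replicate 4 and 5 without Activity Reduction replicate 4. GIMAP GTPases, small GTPases of immune cells and endothelium, were lower for 5 and 4 of 7, for 2 with the division without Active replicate 6 or Activity Reduction replicate 1, and for 1 on either side of the division alone. Gimap6 was between 10.3 and 12.4 CPM (median 11.7) in Active and between 7.94 and 10.3 CPM (median 9.22) in Activity Reduction mice, and the groups met at 10.3 CPM without overlapping. Its log2 fold change was -0.37 (SE 0.0623, adjusted p = 0.0519) without and -0.35 (SE 0.0686, adjusted p = 0.116) with the division, and Inactive mice had a median of 9.64 CPM. Gimap5 had -0.55 (SE 0.189). Of 6 lymphatic genes, only Lyve1 was lower in each fit, but without the division 4 were without Active replicate 6, 3 without Activity Reduction replicate 3 and 2 without Active replicate 2 or Activity Reduction replicate 1 or 2. Spred1, an inhibitor of ERK signalling, had -0.31 (SE 0.0845) and was 1 of 2 lower among 11 ERK pathway brakes, where 3 were lower without the division.

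Fewer de novo lipogenesis genes had a p-value under 0.05 with the division than without it. Without it 9 of 17 had a p-value under 0.05 and lower levels, with a median of -0.30, and with it 4 of 17, with a median of -0.16. These counts became 5 without Active replicate 3 in the former fit, and in the latter 2 without Active replicate 3, Active replicate 7 or Activity Reduction replicate 1 and 7 without Active replicate 6. Acly, which makes cytosolic acetyl-CoA, was between 18.1 and 34.8 CPM (median 23.4) in Active and between 15.2 and 17.7 CPM (median 16.6) in Activity Reduction mice, with no overlap, and Inactive mice had a median of 16.0 CPM. Acly went from -0.58 (SE 0.120) to -0.46 (SE 0.114, adjusted p = 0.137) with the division. Fasn, the fatty acid synthase, ranged from 10.2 to 86.3 CPM in Active and from 11.3 to 30.8 CPM in Activity Reduction mice, and its log2 fold change went from -1.09 (SE 0.344) to -0.76 (SE 0.351, adjusted p = 0.429) and was -0.32 in the libraries below 250. The elongase Elovl6 went from -1.09 (SE 0.288) to -0.73 (SE 0.243), whereas the desaturase Scd2 had -0.48 (SE 0.205) with the division. The summed level of 11 adipocyte genes ranged from 125 to 250 CPM in Active and from 120 to 187 CPM in Activity Reduction libraries, led by Fabp4. Of the 10 tested, 0 had a p-value under 0.05, but all 10 were below 0 without the division and 9 with it, with a median log2 fold change of -0.31 and -0.16. With single libraries left out the medians lay between -0.43 and -0.09 without and between -0.34 and -0.03 with the division, and 2 were lower in both fits without Activity Reduction replicate 7 and with the division without Active replicate 1 or 6. Adipoq, the adipokine adiponectin, had medians of 4.75 and 4.97 CPM and a log2 fold change of -0.38 (SE 0.447, adjusted p = 0.813), and Lep, the adipokine leptin, medians of 2.10 and 1.20 CPM and -1.04 (SE 0.517, adjusted p = 0.472), both with the division. The part of adipose tissue in the lipogenic transcripts was not tested.

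Oxidative metabolism had few members with a p-value under 0.05, in numbers that moved with single libraries. Of 81 respiratory complex genes, 8 were higher and 1 lower without the division and 1 higher and 4 lower with it, with medians of 0.06 and 0.01. Over all transcripts 6.83% were higher and 6.71% lower without the division, and 5.58% and 5.33% with it. With the division neither count was above that share. Over the leave-outs the medians lay between 0.030 and 0.096 without and between -0.031 and 0.051 with the division. Without Activity Reduction replicate 1 there were 33 respiratory complex genes higher in the former fit and 6 in the latter, and without Activity Reduction replicate 6 there were 1 and 0. The former count was 3 without Active replicate 1, Active replicate 2 or Activity Reduction replicate 7, 4 without Active replicate 5 or Activity Reduction replicate 2 or 4, and 5 without Active replicate 3, and in the latter fit 1 was lower without Activity Reduction replicate 2 and 2 without Active replicate 3. Of 20 TCA cycle genes 1 was lower without and 2 with it, one being Sdhb (-0.13, SE 0.0378). Of 29 genes of fatty acid uptake and oxidation, 0 had a p-value under 0.05 without and 1 was lower with the division, namely Lpl, the lipoprotein lipase (-0.22, SE 0.100). Ppargc1a, a coactivator of mitochondrial genes, had medians of 33.2 and 36.3 CPM and a log2 fold change of 0.07 (SE 0.0637) with the division, and of 14 mitochondrial regulators 2 were higher and 2 lower without the division, and with it 1 was higher, Ppard, and 1 lower, Esrrg. Ldhb, the lactate dehydrogenase subunit of oxidative fibres, had -0.34 (SE 0.0866, adjusted p = 0.152) and was the only 1 of 30 glycolysis and glycogen genes that was lower with the division, beside 0 higher, where 2 were higher and 1 lower without it. Leaving out single libraries gave 0 to 5 of these 30 higher and 0 to 2 lower without the division. With the division it gave 0 to 2 higher and 1 to 2 lower. In insulin signaling, 3 of 23 genes were higher in each fit, among them Gsk3a (0.15, SE 0.0459), a glycogen synthase kinase, and 1 was lower without and 0 with the division.

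Part of the ribosomal, proteasome and translation genes were slightly higher, in numbers that moved with the division and with single libraries. Of 84 cytoplasmic ribosomal proteins, 47 without and 21 with the division had a p-value under 0.05 and higher levels, and 0 were lower, with medians of 0.12 and 0.08. In the libraries below 250, 2 of 84 were higher and 0 lower, and in those above 5 were higher and 2 lower, with medians of 0.09 and 0.07, so that on either side alone the count higher was near the share of all transcripts (1.95% below and 4.2% above). Of 37 proteasome subunits, 23 and 13 were higher, with medians of 0.10 and 0.08, and of 66 translation factors, 21 and 19 were higher and 2 lower in each fit. Below and above 250, 5 and 14 proteasome subunits and 2 and 7 translation factors were higher. Of 75 mitochondrial ribosomal proteins, 12 and 10 were higher, with 5 to 17 and 0 to 15 when single libraries were left out (5 without Activity Reduction replicate 6 and 7 without Activity Reduction replicate 2 or Active replicate 1 or 2 in the former, and 0 without Activity Reduction replicate 2, 2 without Activity Reduction replicate 6, 3 without Active replicate 7, 5 without Active replicate 1, 3 or 5 and 6 without Active replicate 2 in the latter). The number of cytoplasmic ribosomal proteins varied with single libraries, from 24 to 64 without the division (24 without Activity Reduction replicate 6 and 31 without Active replicate 1) and from 10 to 36 with it (10 without Active replicate 7, 11 without Activity Reduction replicate 2 or 6 and 36 without Activity Reduction replicate 1). Proteasome subunits were between 14 and 23 without the division (14 or 15 without Active replicate 1 or 5 or Activity Reduction replicate 1 or 6), and translation factors were at 12 with it without Activity Reduction replicate 1 or 2. With upper-quartile scaling the median of all transcripts moved to -0.02, and the medians with the division became 0.06 for ribosomal proteins, 0.06 for proteasome subunits and 0.04 for translation factors, all still above 0. Psmd4, a ubiquitin receptor of the proteasome, was between 118 and 132 CPM (median 122) in Active and between 130 and 150 CPM (median 141) in Activity Reduction mice, overlapping between 130 and 132 CPM. Psmd4 had a log2 fold change of 0.18 in both fits (SE 0.0408 and adjusted p = 0.116 with the division). The subunit Psmd2 had 0.19 (SE 0.042) and Psmd8 0.29 (SE 0.0771). Rpl7a, a protein of the large ribosomal subunit, had 0.17 (SE 0.0426), the elongation factor Eef1g 0.12 (SE 0.0368), and Eif4ebp1, which holds back cap-dependent translation, 0.31 (SE 0.0953). Of 26 heat shock proteins 3 were higher in each fit (1 without Activity Reduction replicate 1 without the division, and 5 without Activity Reduction replicate 3 with it), among them Hsph1 (0.24, SE 0.067). In the endocytosis and vesicle transport list, 5 of 43 were higher and 3 lower without the division and 7 and 3 with it, with a median of 0.02 in each fit and 24 members above and 19 below 0 with the division. The lower were 6 without Active replicate 4 or Activity Reduction replicate 3 and 1 without Active replicate 6 in the former fit, and 7 without Activity Reduction replicate 3 and 5 without Active replicate 1 or Activity Reduction replicate 7 in the latter. Its summed level follows the most abundant members. It was between 2510 and 2614 CPM in Active and between 2636 and 2741 CPM in Activity Reduction mice. These ranges did not overlap, and that of Inactive mice, 2558 to 2642 CPM, reached into both. Sums of the exercise-linked myokines did not overlap either, at 359.5 to 405.1 CPM in Active and 329.2 to 355.9 CPM in Activity Reduction mice. List sums were not tested, without or with the division. Cltb, a clathrin light chain, had 0.22 (SE 0.0548) and Epn1, an adaptor of coated pits, 0.19 (SE 0.0483), whereas Dnm1, a dynamin, had -0.42 (SE 0.127).

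**Figure D3:**
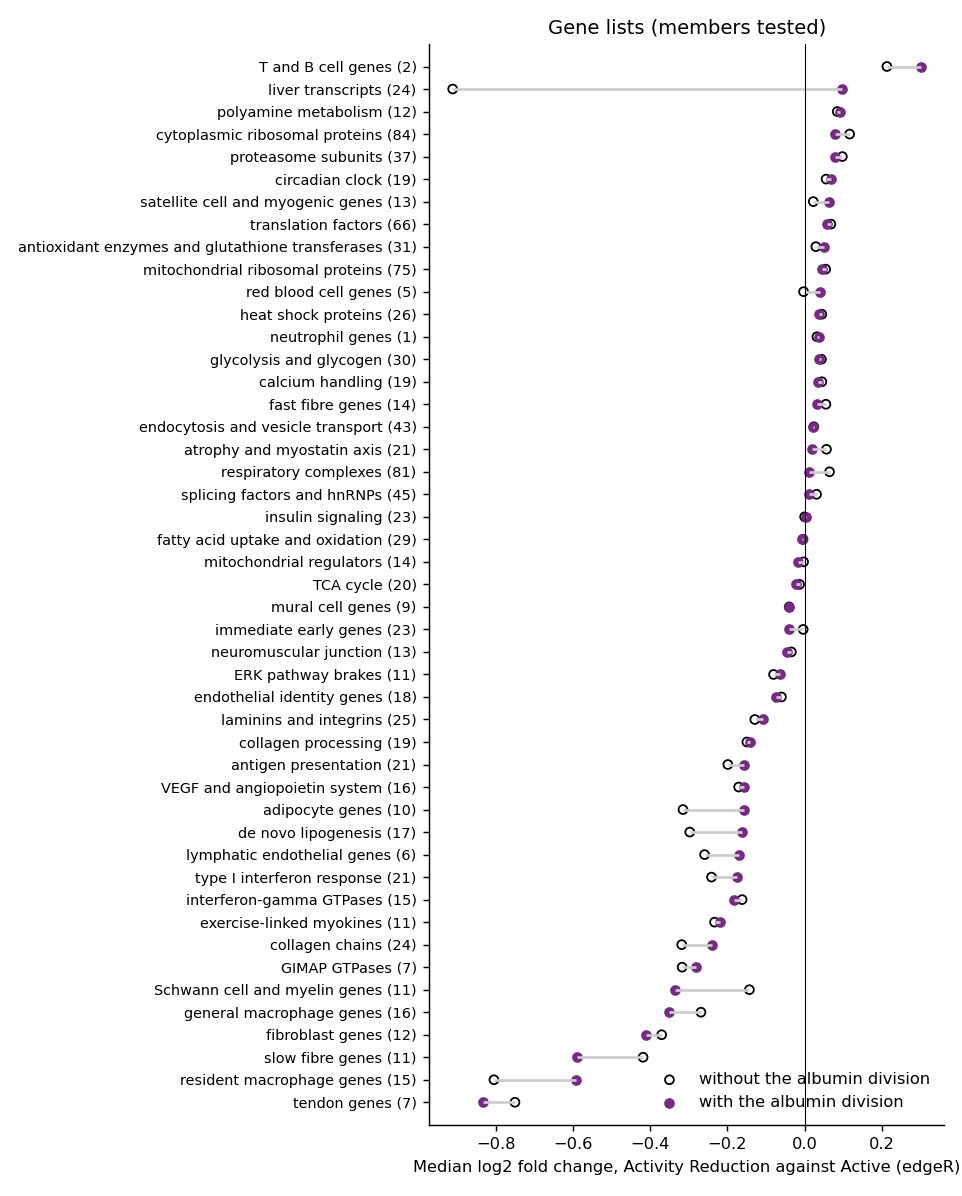
Median log2 fold change of each of the 47 gene lists, without (open points) and with (filled points) the albumin division, with the number of members tested. Liver transcripts, which include the Alb that defines the division, move from -0.91 to 0.10. Slow fibre, resident macrophage, fibroblast and tendon genes stay at or below -0.37 in both.

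Tbx1, Hoxa11os, Six2 and En1 were among the higher leading transcripts, and Zfhx4 among the lower. Tbx1, a T-box factor, was 2.85 CPM at the median in Active (1.56 to 8.53) and 9.10 CPM in Activity Reduction mice (3.42 to 12.9), with a log2 fold change of 1.31 (SE 0.332, adjusted p = 0.141) with the division. The groups overlapped. Activity Reduction replicates 1, 2, 3, 4 and 6 and Active replicate 3 had between 7.71 and 12.9 CPM, and Activity Reduction replicates 5 (3.42 CPM) and 7 (3.76 CPM) were near the other Active libraries, the highest of which had 3.15 CPM. Hoxa11os, a noncoding RNA opposite to the limb patterning gene Hoxa11, was high in the same libraries, at 2.86 CPM in Active replicate 3 against 0.676 to 1.40 CPM in the other Active libraries, and at 1.46 and 1.40 CPM in Activity Reduction replicates 5 and 7 against 3.00 to 4.51 CPM in the rest. Hoxa11os had a log2 fold change of 1.29 (SE 0.293, adjusted p = 0.123). It shares 26.6% of its exon length with Hoxa11, which had 0.91 (SE 0.335) and shares 43.6% of its own, so that both counts are uncertain. Hoxa13, named like Hoxa11 after its values were seen, had 1.07 (SE 0.278, adjusted p = 0.154). Six2, a homeobox factor of mesenchyme, had medians of 11.8 and 19.8 CPM and 0.60 (SE 0.153), and En1, the engrailed homeobox factor, 4.58 and 6.73 CPM and 0.46 (SE 0.108). Zfhx4, a large zinc finger homeobox factor, was lower, at 10.8 to 12.02 CPM in Active and 7.57 to 11.1 CPM in Activity Reduction mice, and only replicate 7 of the latter, at 11.1 CPM, lay within the Active range. It had the smallest p-value of all transcripts with the division, with a log2 fold change of -0.40 (SE 0.0692, adjusted p = 0.0848), and the exact permutation tests gave p = 0.00117 over all mice and 0.00227 within the division, the smallest that its 441 arrangements allow.

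**Figure D4:**
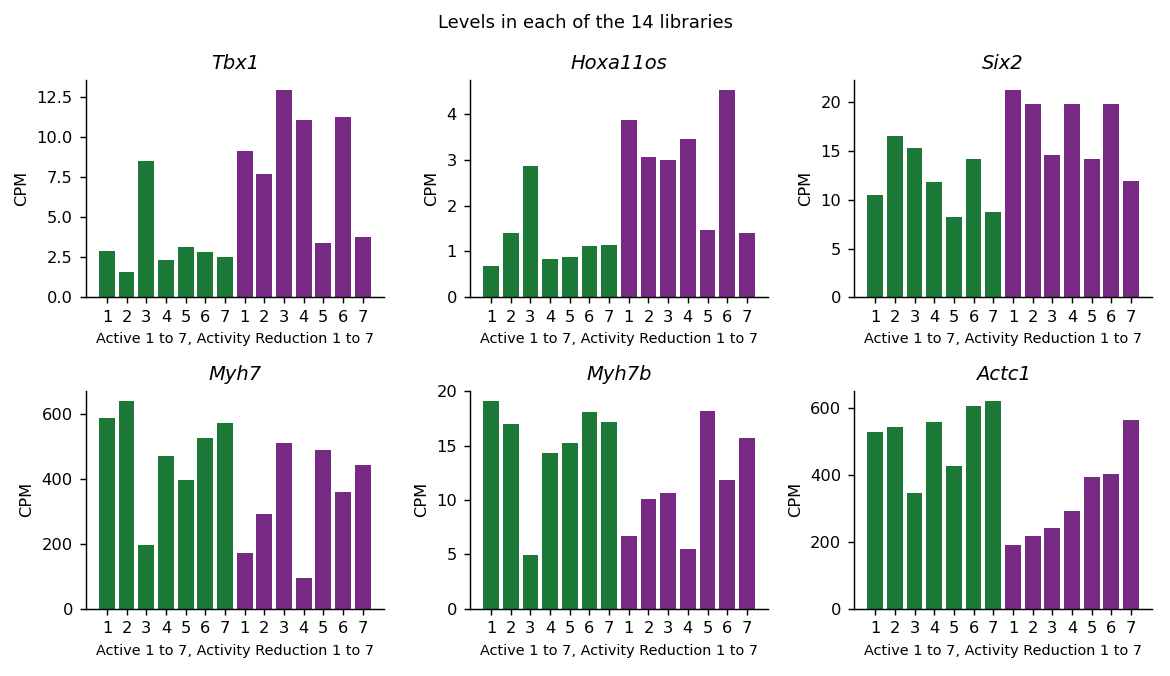
CPM of Tbx1, Hoxa11os, Six2, Myh7, Myh7b and Actc1 in each of the 14 libraries, by group and replicate number. Active replicate 3 has more Tbx1 and Hoxa11os and less Myh7 and Myh7b than the other Active libraries, and Activity Reduction replicates 5 and 7 have the lowest Tbx1 of their group.

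Among the other higher leading transcripts, Anxa7, a membrane-binding annexin on chromosome 14 of GRCm39 from 20505328 to 20530201, was between 48.2 and 59.0 CPM (median 52.2) in Active and between 55.1 and 73.0 CPM (median 62.0) in Activity Reduction mice. Only Active replicate 3 reached into the latter range, and the log2 fold change was 0.30 (SE 0.0584, adjusted p = 0.112), against 0.26 without the division. Serpinb6a, an intracellular protease inhibitor, had 0.32 (SE 0.0703), the methyltransferase Smyd2 0.30 (SE 0.0777), and Phospho1, a phosphatase of matrix mineralization, 0.29 (SE 0.0676). Serpinb6a shares 10.0% of its exon length with Nqo2 on the opposite strand. Phlda3, an inhibitor of Akt, had 0.36 (SE 0.0912), the cytochrome P450 Cyp4f39 1.02 (SE 0.236), the pseudouridine synthase-like gene Pusl1 0.33 (SE 0.0843), the vesicle protein Syngr2 0.27 (SE 0.0565), the tetraspanin Cd151 0.27 (SE 0.0574), and the ATP-gated channel P2rx6 0.28 (SE 0.0844). Exons overlap those of another gene over 57.0% of the length of P2rx6, 47.8% of Pusl1, 31.1% of Smyd2, 30.2% of Phospho1, 21.5% of Syngr2 and 15.4% of Cd151, which leaves these counts uncertain. On the lower side, Rassf2, a Ras association domain protein, did not overlap (1.36 to 2.28 against 2.47 to 3.60 CPM) and had -0.74 (SE 0.152). Fxyd6, a regulator of the sodium pump, had -0.42 (SE 0.0766) and Kcp, a secreted modulator of BMP signalling, -0.62 (SE 0.127). The bHLH-PAS factor Arnt2 had -0.53 (SE 0.120), and the noncoding RNA Srrm4os -0.74 (SE 0.175). The transcript C130080G10Rik, which is not in the annotation used here, had -1.06 (SE 0.305) at a median of 1.16 CPM in Active and 0.460 CPM in Activity Reduction mice. The median of the 7 Inactive mice lay between the medians of the other groups for Anxa7 (55.5 CPM), Serpinb6a (133.8 CPM) and Rassf2 (2.01 CPM), without a test. It lay below both medians for Smyd2 (163 CPM) and above both for Srrm4os (3.52 CPM) and P2rx6 (23.6 CPM).

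Counts in the clock, signalling, satellite cell and immune lists ranged from single members to 7 of 21 type I interferon genes without the division (6.71% of all transcripts were lower in that fit). Over all transcripts 5.58% were higher and 5.33% lower with the division, and counts of 1 or 2 in lists of this size are near that share. Rora, a nuclear receptor that drives Bmal1, was between 108 and 122 CPM (median 110) in Active and between 114 and 146 CPM (median 135) in Activity Reduction mice, which overlapped, with a log2 fold change of 0.24 (SE 0.0484, adjusted p = 0.0744) without and 0.21 (SE 0.0509, adjusted p = 0.133) with the division. It was the only 1 of 19 clock genes with a p-value under 0.05 without the division. With it, Cry2 (0.16, SE 0.0571) and Dbp (0.24, SE 0.105) were also higher and Arntl, the older symbol of Bmal1, was lower (-0.47, SE 0.173). Without Activity Reduction replicate 1, 1 clock gene was higher with the division in place of 3. Ostn, the muscle-secreted peptide osteocrin, had medians of 56.2 and 40.8 CPM and a log2 fold change of -0.41 (SE 0.115), and was with Fstl1, a secreted glycoprotein, among 3 of 11 exercise-linked myokines that were lower in each fit (5 without Active replicate 2 or Activity Reduction replicate 2 without the division). Of 13 satellite cell and myogenic genes tested, 3 without and 2 with the division were higher, the latter Myod1 (0.37, SE 0.15), a myogenic transcription factor, and Cdh15 (0.20, SE 0.069), a cadherin of satellite cells, while their marker Pax7 had 0.25 (SE 0.136, adjusted p = 0.518). Leaving out single libraries gave 2 to 4 higher in this list without and 1 to 4 with the division. Of 13 neuromuscular junction genes 2 were higher and 2 lower without the division, and with it 1 was higher, the receptor subunit Chrnb1 (0.24, SE 0.083), and 2 lower. Of 21 genes of atrophy and the myostatin axis 1 was higher and 1 lower in each fit, with the division Foxo4 and the myostatin antagonist Fst (-0.56, SE 0.177). When single libraries were left out, 1 to 3 of the 21 were higher and 1 to 3 lower without the division. With it, 0 to 1 were higher and 1 to 2 lower. Of 31 antioxidant enzymes and glutathione transferases 6 were higher without and 7 with the division (4 with it without Activity Reduction replicate 1), among them Gpx4 (0.17, SE 0.0503), and 1 was lower in each fit, with the division Prdx4 (-0.49, SE 0.144). Polyamine metabolism had 3 of 12 higher without and 2 with the division, one being Odc1 (0.22, SE 0.0793). With the division, 3 of 21 type I interferon genes were lower (7 without it), 2 of 21 antigen presentation genes (4 without it) and 1 of 15 interferon-gamma GTPases in both fits, with 0 higher in each. These counts moved with single libraries. Type I interferon genes were 0 without Activity Reduction replicate 2 and 6 without Activity Reduction replicate 6 with the division, and 4 without Active replicate 4 or 5 or Activity Reduction replicate 3 or 5 without it. Antigen presentation genes were between 0 and 3 with the division (0 without Active replicate 4 or 7 or Activity Reduction replicate 2 or 3) and between 2 and 6 without it (2 without Active replicate 4 or Activity Reduction replicate 4), and interferon-gamma GTPases between 0 and 5 and between 0 and 8, the 5 and the 8 without Activity Reduction replicate 6. Of 23 immediate early genes 2 were higher and 1 lower without the division and 1 and 0 with it, and of 45 splicing factors 3 and 2 were higher and 0 lower. Splicing factors were 1 to 5 higher and 0 to 3 lower without the division when single libraries were left out. With it they were 2 to 4 higher and 0 to 1 lower.

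Among markers of other tissues and cells, those of tendon and adipose tissue were mostly below 0, with few or no p-values under 0.05 over the 14 libraries. Of 5 red blood cell genes, 0 had a p-value under 0.05, and Hbb-bs, a beta globin, had medians of 33.9 and 32.1 CPM. In the libraries above 250, 2 of the 5 were higher with a median of 0.46, and in those below 0 were and the median was -0.29. Mural cell genes (9 tested), neutrophil genes (1 of 6 tested) and T and B cell genes (2 of 13 tested) likewise had 0. Of 11 Schwann cell genes 0 had one, although the median was -0.14 without and -0.33 with the division, and Active replicate 7 stood apart with a summed level of 221 CPM against 61.7 to 125 CPM in the other Active libraries. It is 1 of the 7 libraries below 250, in which 4 of the 11 were lower. With the division 10 of the 11 were below 0, and without that library the medians were 0.15 without and 0.15 with the division. Of 7 tendon genes, 6 were below 0 in each fit, with medians of -0.75 without and -0.83 with the division, and 0 of them had a p-value under 0.05. Scx, a transcription factor of tendon cells, was the other and was higher (0.40, SE 0.182). Comp, a cartilage and tendon matrix protein, had -1.08 (SE 0.577, adjusted p = 0.5), and the proteoglycan Fmod -0.96 (SE 0.591, adjusted p = 0.572), with the division. In the libraries above 250, 4 of the 7 were lower and the median was -1.33, and in those below 0 were and the median was -0.04. Without Active replicate 6, 4 and 5 were lower without and with the division. The summed level spread from 18.4 to 98.9 CPM in Active and from 26.4 to 46.0 CPM in Activity Reduction libraries. Tendon and fibroblast genes share extracellular matrix products, and the part of tendon in the collagen transcripts was not tested.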

How the data were processed

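Counts per gene of 40853 genes were deposited by the authors for 21 libraries. Per the labels and the study's methods, reads were trimmed with fastp, aligned with STAR to GRCm39 and counted with featureCounts. Their versions and the strand setting of the counting are not given in the sources used here. A table deposited as normalized held the same 857913 values and was not used. Groups followed the treatment in the labels, with 1 library per mouse. edgeR 4.0.16 (R 4.3.3) with TMM factors and its quasi-likelihood test was fitted to all 21 libraries, which share the estimate of spread, without and with the albumin division (250 CPM of Alb), after its filter on low counts. P-values were adjusted by Benjamini-Hochberg over all genes tested, and a call needed an adjusted p-value under 0.05 and a log2 fold change over 0.25 in either direction. DESeq2 1.42.0 was an alternative. Exact two-sided permutation tests used all 3432 arrangements of 7 and 7 mice, or the 441 within the division. Named genes were the 30 leading transcripts described above, up to 4 members of each list with the smallest p-value, members that define a list, and a few named after their values were seen (Hoxa11, Hoxa13, Myh7b, Tpm3 and Myoz2). The comparison, the 47 lists and the rule were chosen with earlier results of these data known. Of list members, the study had reported Folr2, Cd209f, F13a1, Acly, Elovl6, Gimap6, Nrp2, Lama4 and Spred1 as higher in Active mice from these same libraries. Some genes are in more than one list, such as Kdr, Lyve1, Sdhb and Eif4ebp1. Exon overlaps are from GENCODE on GRCm39, and promoters from RefSeq on GRCm38.p6. Alternatives covered scaling, filters, tools, the covariate and leaving out each replicate.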

Additional observations from a re-analysis of the deposited data

Results flagged for a closer look

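In groups of 7 libraries, a library was set apart where its gap to the nearest other library took up more than 0.568 of the range of the group. Chance alone does this in about 1 in 20 groups. Many transcripts were screened in this way, so chance alone can set apart a number of libraries like those below. The share of the screened groups that was set apart is not given here. In the Active group, replicate 3 was lowest for Casq2 (34.3 CPM) and Myh7b (4.93 CPM) and highest for Tbx1 (8.53 CPM), Hoxa11 (4.63 CPM), Hoxa11os (2.86 CPM) and Hoxa13 (2.49 CPM). Active replicate 7 was highest for the myelin genes Mbp (47.3 CPM), Pmp22 (50.9 CPM) and Prx (16.9 CPM) and for Arnt2 (5.71 CPM), and lowest for Kdr (32.3 CPM). Clec10a was lowest in Active replicate 2 (0.94 CPM), Nrp1 highest in Active replicate 5 (48.8 CPM) and Ostn lowest in Active replicate 6 (49.1 CPM). In the Activity Reduction group, Adipoq was lowest (1.57 CPM) and Rtp4 highest (3.01 CPM) in replicate 5, and Pmp22 was highest in replicate 1 (24.8 CPM). Replicate 4 of that group stood apart in a chi-squared on raw counts, in which abundant genes weigh most. Chi-squared per degree of freedom between 2 libraries was 91.6 to 120 for it against the others of its group. Among those others it was 17.6 to 51.4. On the first 2 principal components of log2 CPM, replicate 4 lay within the range of its group (-21.1 and 1.73). Replicate 4 also had the lowest summed level of slow fibre genes (799 CPM). No cause was tested for any of these.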

How the results depend on the processing

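The number of transcripts called without the division was 0 in edgeR, 132 with DESeq2 on the 14 libraries, 117 with DESeq2 on all 21, 1 with RLE size factors, 1 with upper-quartile scaling, 3 with a mean of at least 1 CPM, 4 with robust empirical Bayes and 0 to 15 when each replicate was left out, the 15 without Activity Reduction replicate 7. With the division it was 0 in edgeR, 83 and 55 with DESeq2 on 14 and 21 libraries, 1 (Zfhx4) with upper-quartile scaling and 0 to 8 when each replicate was left out, the 8 without Active replicate 3. Gimap6 was the transcript called with RLE size factors. The number with an unadjusted p-value under 0.05 in the fit with the division was 794 in only the 7 libraries below 250 and 1426 in only the 7 above, against 1759. With upper-quartile scaling, 32.1% of such transcripts were higher in the fit with the division, against 51.2%. Fitting the replicate number as a block gave 0 calls in each fit, and 2455 transcripts without and 1912 with the division had an unadjusted p-value under 0.05. Same-numbered libraries had correlations of -0.208 to 0.326, so the numbers do not pair the samples. Over 128 genes named in the text and all settings, 6690 values kept sign and side of the threshold, 181 passed it newly and 37 changed sign. Hbb-bs became 0.000734 and 0.00115 with DESeq2 on 21 and 14 libraries and -0.354 below 250 with the division, and Adipoq became 0.0305 with limma-voom and 0.0918 with the replicate block. Without the division Pdk4, at 0.00637, became -0.0126 with upper-quartile scaling and -0.0187 with the replicate block. In only the libraries above 250, Alb was -0.067, Mbp 0.0914, Myh1 0.138, Ppargc1a -0.0802 and Prx 0.0236. Over the leave-outs, the log2 fold change without the division lay between -0.0814 and 0.0603 for Hbb-bs, -0.419 and 0.102 for Mbp, -0.0945 and 0.0134 for Myh1, -0.137 and 0.131 for Pdk4, and -0.0864 and 0.0066 for Myh2. With it, it lay between -0.718 and 0.0288 for Adipoq, -0.0705 and 0.15 for Hbb-bs, -0.648 and 0.00444 for Mbp, and -0.122 and 0.0156 for Myh1. The causes were not tested.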
